A study of Mus musculus with 22 samples.

Results

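The receptors described here are the killer cell lectin-like genes and 5 further receptors of natural killer (NK) cells in RNA-seq libraries of mouse liver cells. They were chosen by name alone: the 27 symbols that begin with Klr, then a letter from a to k and a number, plus Ncr1, Cd226, Cd96, Crtam and Slamf7. These are 32 of the 55367 gene symbols in the count table. The filter on low counts left 22409 genes, among them 31 of the 32, and Klra10 was not tested. The 22 libraries came from liver and carry the cell type label HSC, which commonly stands for hepatic stellate cell. In 12 of them the mice had eaten CDA-HFD, a fat-rich feed without choline that is used to model steatohepatitis with fibrosis, and in 10 control libraries the mice had eaten chow. Each diet group held 3 libraries at zeitgeber time (ZT) 0, 6, 12 and 18 h, and the control groups held 3, 2, 2 and 3. ZT0 is lights on and ZT12 lights off. Mice of both groups were 20 weeks old per the labels, with feeding begun at 8 weeks of age and lasting 12 weeks, while another field gives 6 months of diet. Strain, sex and the way the cells were isolated are not stated in these sources. Nothing ties a library to a separate mouse, so p-values here rest on variation among libraries that may be technical.

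NK cells and the related type 1 innate lymphoid cells, both abundant in liver, read the surface of other cells through activating and inhibitory receptors encoded in the germ line. In mice many of these are C-type lectins of the NK gene complex on chromosome 6. They comprise the Ly49 family (Klra), most of which bind classical MHC class I, and the NKR-P1 family (Klrb1), which binds Clec2 lectins. They also comprise CD94 (Klrd1) with its NKG2 partners (Klrc), which bind the class Ib molecule Qa-1, and NKG2D (Klrk1), which binds stress-induced ligands. Inhibitory members carry a tyrosine motif that recruits phosphatases, and activating members signal through adaptors such as Tyrobp (DAP12) and Hcst (DAP10). Some T cells, plasmacytoid dendritic cells and other leukocytes make some of the same receptors.

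Totals ran from 19754805 to 41665623 counts in genes per library. Markers of stellate cells were low on both diets, with a summed level of 93.0 to 209 CPM (counts scaled to a common library total, with TMM factors) in diet libraries and 169.6 to 411 CPM in control libraries over 12 genes. Of the 12 genes 3 were higher, 3 lower and 6 not called between the diets. Lrat, Des, Reln and Pdgfrb, which define these cells, were among those not called, Rgs5 (log2 3.60 ± 0.24) and Ngfr were among the higher, and Ecm1 (-2.85 ± 0.14) and Nes among the lower. Over 10 markers of sinusoidal endothelium the sum was 903 to 2124 CPM in diet libraries and 13960 to 27400 CPM in control libraries. The 13 markers of T cells summed to 2740 to 5674 CPM in diet libraries, against 509 to 2108 CPM in control libraries. All 32 receptors together summed to 1184 to 1698 CPM in diet libraries and 207 to 788 CPM in control libraries, which do not overlap. The highest control sums were 788, 721, 713 and 733 CPM in the 3 libraries of ZT18 and in replicate 2 of ZT0. That ZT0 library lay nearest to the diet libraries on the first principal component, and the second component set off the first ZT18 control replicate. In bulk RNA, fewer cells of a type and less RNA per cell cannot be told apart.

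Ly49 genes arose by duplication, and some of them share long stretches of sequence. Over the 55 pairs of Klra promoters the identity ran from 39.7% to 84.5%, with a median of 50.5%. Identity is the share of matching bases among all aligned columns, with gaps and unpaired ends counted as differences. Sequences of 250 bases before the gene start were taken from RefSeq on GRCm38.p6, which matched 27 of the 32 receptors. The RefSeq starts of Klra5, Klrb1a and Klrb1c lie inside the longer gene models of GENCODE M21, so their windows fall within those models and the annotations disagree on the start. The genes printed are 3 pairs of related genes and Ncr1, chosen after their values were seen to set promoters of related genes side by side, and each is on the strand of its gene, 5′ to 3′. Capitals mark TGTGGT on either strand, the core letters bound by RUNX factors. The first pair, Klra4 (chr6:130067272-130067521, minus strand) and Klra8 (chr6:130129899-130130148, minus strand), encodes the activating receptors Ly49D and Ly49H.
Klra4: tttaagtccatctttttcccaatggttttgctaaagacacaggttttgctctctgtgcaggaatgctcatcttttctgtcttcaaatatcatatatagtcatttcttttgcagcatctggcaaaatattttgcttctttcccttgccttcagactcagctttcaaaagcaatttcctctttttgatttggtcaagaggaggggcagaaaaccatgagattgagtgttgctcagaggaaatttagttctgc
Klra8: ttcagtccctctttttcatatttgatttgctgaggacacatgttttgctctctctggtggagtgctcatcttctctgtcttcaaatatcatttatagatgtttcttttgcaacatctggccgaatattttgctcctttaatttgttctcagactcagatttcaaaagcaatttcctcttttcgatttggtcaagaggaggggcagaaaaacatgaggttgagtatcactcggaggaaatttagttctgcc
Klra5 (chr6:129913225-129913474, minus strand) and Klra6 (chr6:130026955-130027204, minus strand) encode Ly49E and Ly49F.
Klra5: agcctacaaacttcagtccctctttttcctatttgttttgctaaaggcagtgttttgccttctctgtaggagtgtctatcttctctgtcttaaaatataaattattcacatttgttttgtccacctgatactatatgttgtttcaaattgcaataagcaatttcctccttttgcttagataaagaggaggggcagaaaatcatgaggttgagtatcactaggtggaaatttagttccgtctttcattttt
Klra6: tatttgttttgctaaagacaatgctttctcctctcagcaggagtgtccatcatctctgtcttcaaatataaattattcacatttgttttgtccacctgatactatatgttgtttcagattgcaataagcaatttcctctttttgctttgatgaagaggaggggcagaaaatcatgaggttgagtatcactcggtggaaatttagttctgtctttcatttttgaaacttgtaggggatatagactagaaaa
Klrb1a (chr6:128622935-128623184, minus strand) and Klrb1c (chr6:128788642-128788891, minus strand) encode NKR-P1A and NKR-P1C, the NK1.1 antigen.
Klrb1a: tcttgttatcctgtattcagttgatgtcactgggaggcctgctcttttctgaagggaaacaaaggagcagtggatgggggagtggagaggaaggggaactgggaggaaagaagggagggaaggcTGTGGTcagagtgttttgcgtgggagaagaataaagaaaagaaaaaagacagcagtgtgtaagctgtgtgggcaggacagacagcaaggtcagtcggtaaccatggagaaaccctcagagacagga
Klrb1c: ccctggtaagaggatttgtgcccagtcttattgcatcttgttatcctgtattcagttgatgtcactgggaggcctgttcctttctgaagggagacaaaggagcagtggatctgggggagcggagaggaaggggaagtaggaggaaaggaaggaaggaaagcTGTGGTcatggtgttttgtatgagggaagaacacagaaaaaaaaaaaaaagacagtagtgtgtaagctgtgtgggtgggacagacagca
Ncr1 (chr7:4337465-4337714, plus strand) encodes NKp46 and belongs to the immunoglobulin superfamily.
Ncr1: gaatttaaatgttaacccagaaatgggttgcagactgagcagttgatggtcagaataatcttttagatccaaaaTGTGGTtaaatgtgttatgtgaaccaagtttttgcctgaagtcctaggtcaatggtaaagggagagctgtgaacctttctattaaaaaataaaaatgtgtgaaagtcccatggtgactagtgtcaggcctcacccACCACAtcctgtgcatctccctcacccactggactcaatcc

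Aligned end to end, the windows of Klra4 and Klra8 were 84.5% identical over 251 columns, the highest value among the Klra pairs. Both changed strongly under diet, as given below. Klra5 and Klra6 were 73.1% identical over 279 columns and Klrb1a and Klrb1c 64.8% over 290. The windows of these pairs start at different points of the sequence they share, and the unpaired ends lower both values. The percentages therefore do not rank the pairs by the likeness of their shared bases. The log2 changes of these genes are given below. Among other pairs, Klra3 and Klra9 (83.6% identical) changed by 1.19 and 1.65, and Klra4 and Klra17 (79.4%) by 6.72 and 2.87. Whether promoter identity goes with the change under diet was not tested. The letters TGTGGT, searched on both strands, were in 10 of the 27 receptor windows (37%) and in 14.2% of 27025 windows of the same length, 1 per gene. Klrb1a and Klrb1c each held 1 match and Ncr1 held 2 that do not overlap. GGTGTGA (T-box factors) was in 0 of 27 receptor windows and in 3.31% of all. TGANTCA (AP-1, where N is any base) was in 1 of 27 and in 6.87%, and CAGGAAGT (ETS) in 0 of 27 and in 2.73%. A match is a run of letters and not a shown binding site.

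Under diet 29 of the 31 tested receptors were higher over the 4 times and none was lower, in edgeR's quasi-likelihood F test (Benjamini-Hochberg adjusted p under 0.05 over all tested genes). Of all genes, 52.4% were called in that comparison, 27.5% as higher and 24.9% as lower. Without the 2 control libraries that stood apart the count was 29 again. The median log2 change of the 31 receptors was 2.36, against 0.08 over all tested genes. By over 2-fold 25 receptors were higher (16.7% of all genes), by over 4-fold 16 (8.39%) and by over 8-fold 10 (3.32%). With receptors that had a control group at 0 counts set to the floor described below, 16 were over 4-fold and 8 over 8-fold. In 17 of 31 every diet library lay above every control library, which held for 7.35% of all genes. The receptors not called were Klra5 (log2 0.32 ± 0.37 SE, adjusted p = 0.503) and Klrb1 (1.40 ± 0.78, adjusted p = 0.145). With replicate 1 of control ZT12 left out Klrb1 was called as higher (2.88, adjusted p = 0.0191), and likewise with replicate 2 of control ZT18 left out (1.97, adjusted p = 0.0454). Of the 12 receptors assigned an activating role from textbook knowledge all 12 were higher, with a median of 2.30, and of the 11 inhibitory ones 10 were, with a median of 1.65.

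**Figure D1:**
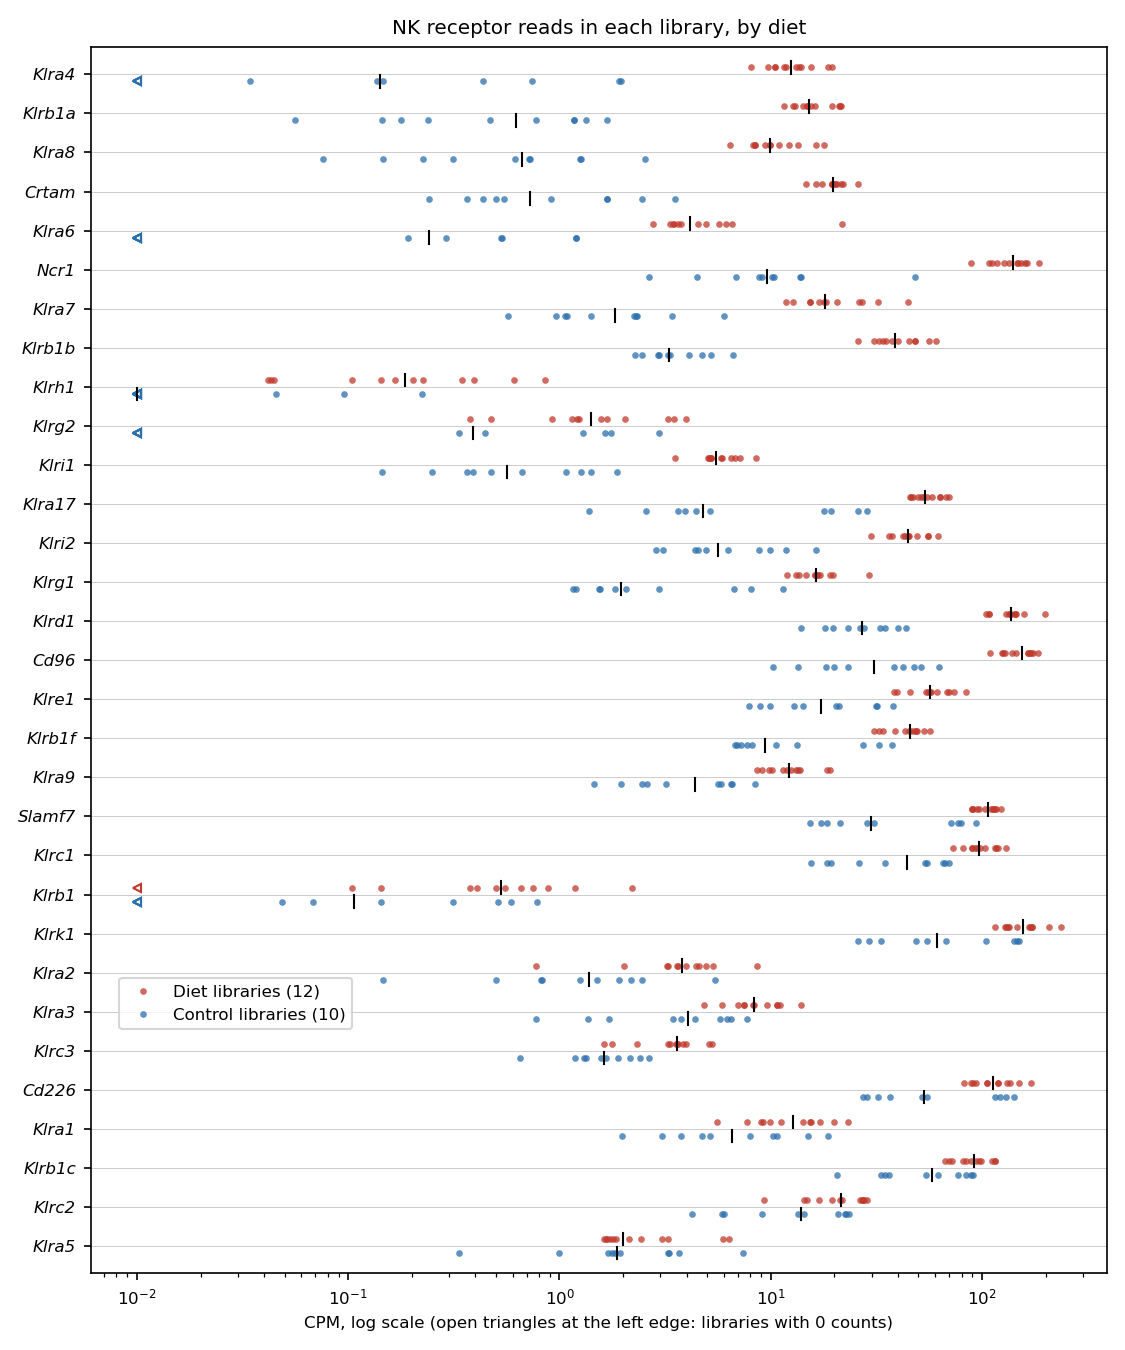
Reads of the 31 tested receptors in each library, as CPM on a log axis, with diet libraries (red) above control libraries (blue) in each row and a black tick at each group's median; open triangles stand for libraries with 0 counts. Genes are ordered by their log2 change, from Klra4 (6.72) at the top to Klra5 (0.32) at the bottom, and in 17 rows the red and blue points do not overlap.

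The Ly49 genes held both the largest and the smallest change of all receptors. Klra4, the activating Ly49D, had 8.06 CPM in the lowest diet library, 12.5 in the median and 19.5 in the highest, against 0, 0.141 and 1.95 CPM in control libraries. Every diet library was above every control library, and 3 of the 10 control libraries had 0 counts. Its log2 change was 6.72 ± 0.43 (adjusted p = 5.78e-11). Both control libraries at ZT6 were at 0, so the fitted change leans on the model there: against a floor of 3 counts over that group, Klra4 was at least 144-fold higher at ZT6, and with that floor its mean over the times was 5.71. The plain ratio of its mean CPM, diet libraries over control libraries, was smaller, at 24.3-fold. Klra8, the activating Ly49H that binds a viral protein, had 6.45, 9.92 and 17.8 CPM in diet libraries (lowest, median, highest), against 0.0763, 0.666 and 2.54 CPM in control libraries. Its groups did not overlap either (4.38 ± 0.33, adjusted p = 3.96e-10). Klra7, the inhibitory Ly49G, had 11.9, 18.1 and 44.9 CPM in diet libraries, against 0.573, 1.83 and 6.03 CPM in control libraries (3.58 ± 0.29, adjusted p = 1.41e-09). Klra6 was lower in level, with 2.77, 4.14 and 21.7 CPM in diet libraries and 0, 0.241 and 1.20 CPM in control libraries (3.90 ± 0.63, adjusted p = 2.01e-05). In both of these genes the groups stood apart, though 1 diet library supplied the top value of Klra6 and the next had 6.58 CPM.

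Klra17, the inhibitory Ly49Q that plasmacytoid dendritic cells carry, was the most abundant Ly49 gene per kilobase of exon, at a mean of 46.8 CPM per kb in diet libraries and 9.43 CPM per kb in control libraries. It had 45.7, 53.6 and 69.9 CPM in diet libraries, against 1.38, 4.77 and 28.5 CPM in control libraries, without overlap (2.87 ± 0.23, adjusted p = 7.68e-10). The other Ly49 genes changed less. Klra9 (Ly49I, inhibitory) had a log2 change of 1.65 ± 0.22, Klra2 (Ly49B) of 1.23 ± 0.41, Klra3 (Ly49C, inhibitory) of 1.19 ± 0.27 and Klra1 (Ly49A, inhibitory) of 0.88 ± 0.32. The Klra1 call (adjusted p = 0.0248) ended without replicate 2 of diet ZT12 (0.0657), replicate 2 of control ZT6 (0.0726) or replicate 1 of control ZT12 (0.0504), and that of Klra2 (0.0161) ended without replicate 1 of control ZT6 (0.0566). Klra5 had 1.62, 1.99 and 6.37 CPM in diet libraries and 0.335, 1.88 and 7.42 CPM in control libraries, which overlap throughout. Klra10 had at most 0.287 CPM in diet libraries and 0.958 CPM in control libraries.

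Among the NKR-P1 genes, Klrb1a changed most. This activating member had 11.5, 15.1 and 21.4 CPM in diet libraries (lowest, median, highest), against 0.0558, 0.620 and 1.68 CPM in control libraries. No control library came near the lowest diet library, and the log2 change was 4.82 ± 0.37 (adjusted p = 5.22e-10). Klrb1b, an inhibitory member that binds Clec2d, had 25.9, 38.8 and 60.8 CPM in diet libraries and 2.27, 3.28 and 6.66 CPM in control libraries, also without overlap (3.45 ± 0.18, adjusted p = 1.32e-12). Klrb1c, by contrast, was already plentiful on chow: it had 66.9, 91.3 and 115 CPM in diet libraries and 20.5, 57.8 and 90.9 CPM in control libraries. Those ranges overlap, and the change was 0.81 ± 0.12 (adjusted p = 8.70e-06). Klrb1f, an activating member, changed by 1.76 ± 0.25, with 2 control libraries inside the diet range. Klrb1 was at 0 counts in 1 diet library and 3 control libraries.

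CD94 and NKG2 genes rose as a group, with 5 of 5 called. Klrd1, the CD94 chain that pairs with the NKG2 chains, had the highest mean level per kilobase of exon of all receptors, at 107 CPM per kb in diet libraries and 21.9 CPM per kb in control libraries. It had 104.6, 136.5 and 199 CPM in diet libraries, against 13.9, 27.0 and 43.8 CPM in control libraries, without overlap (2.40 ± 0.13, adjusted p = 2.70e-12). Its partners changed less: the inhibitory NKG2A gene Klrc1 by 1.43 ± 0.17, Klrc3 (NKG2E) by 1.03 ± 0.24 and the activating NKG2C gene Klrc2 by 0.77 ± 0.21. Klrk1, the activating NKG2D, had 114.5, 156.7 and 236 CPM in diet libraries and 25.9, 61.3 and 150.3 CPM in control libraries (1.24 ± 0.16, adjusted p = 8.02e-07). Its highest control libraries, those of ZT18, lay inside the diet range.

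The smaller lectin families were also higher. Klri2, an activating receptor, had 29.7, 44.7 and 61.6 CPM in diet libraries and 2.86, 5.60 and 16.3 CPM in control libraries (2.85 ± 0.18, adjusted p = 2.88e-11). Its inhibitory relative Klri1 changed by 2.93 ± 0.36, and Klre1, the chain with which both pair, by 1.78 ± 0.17. In these 3 genes the groups did not overlap. Klrg1, an inhibitory receptor for cadherins found on mature NK and effector T cells, had 11.9, 16.4 and 29.1 CPM in diet libraries and 1.16, 1.95 and 11.4 CPM in control libraries (2.46 ± 0.33, adjusted p = 2.29e-06). Klrg2 and Klrh1 were near the limit of detection, with medians of 1.41 and 0.185 CPM in diet libraries and 0.390 and 0 CPM in control libraries. Their fitted changes (3.15 ± 0.80 and 3.21 ± 0.92) rest on a control group at 0 counts, at ZT12 for Klrg2 and at ZT18 for Klrh1. Against 3 counts over that group, Klrg2 was at least 29.5-fold higher at ZT12 and Klrh1 at least 8.65-fold higher at ZT18, and with that floor their means over the times were 2.40 and 2.71. The median of the 31 receptors stayed at 2.36 with Klra4, Klrg2 and Klrh1 at these values. The plain ratio of mean CPM, diet libraries over control libraries, was 2.11-fold for Klrg2 and 7.26-fold for Klrh1. Without the ZT12 libraries Klrg2 was not called (1.48, adjusted p = 0.0938).

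All 5 receptors of the immunoglobulin superfamily were higher. Ncr1, which encodes NKp46 and marks NK cells and type 1 innate lymphoid cells, had 88.4, 140.4 and 187 CPM in diet libraries, against 2.65, 9.60 and 48.0 CPM in control libraries. The highest control library was replicate 2 of ZT0 and the next had 13.9 CPM, so the groups were far apart (3.81 ± 0.27, adjusted p = 1.47e-10). Crtam, a receptor of activated NK and T cells that binds Cadm1, had 14.7, 19.8 and 25.8 CPM in diet libraries and 0.242, 0.727 and 3.54 CPM in control libraries (4.38 ± 0.33, adjusted p = 3.58e-10). Cd96, which binds the poliovirus receptor Pvr, had 109, 154 and 185 CPM in diet libraries and 10.2, 30.7 and 62.9 CPM in control libraries (2.36 ± 0.22, adjusted p = 9.87e-09). Neither of these overlapped between the diets. Cd226 (DNAM-1), which activates cells through Pvr and Nectin2, had 82.3, 112 and 171 CPM in diet libraries and 27.4, 53.3 and 142 CPM in control libraries, with overlap (0.93 ± 0.20, adjusted p = 0.000439). Slamf7, which binds itself on neighbouring cells, changed by 1.48 ± 0.23 and overlapped as well.

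Set against their exon length, the order of the receptors differed between the diets. Per kilobase, Klrd1 came first in both, and Ncr1 was second in diet libraries (mean 88.8 CPM per kb) but ninth in control libraries (8.31 CPM per kb). Klrb1b was eleventh in diet libraries (18.5 CPM per kb) and twentieth in control libraries (1.70 CPM per kb). Klrb1c moved the other way, with 30.8 CPM per kb in diet libraries and 19.6 CPM per kb in control libraries, as the sixth and the third of the receptors. Immunoglobulin-like receptors held 35.0% to 41.1% of all receptor reads in diet libraries and 25.8% to 45.9% in control libraries, and the NKG2 and CD94 genes held 26.7% to 33.7% in diet libraries and 24.7% to 43.0% in control libraries. Ly49 genes held 9.19% to 11.5% in diet libraries and 4.61% to 17.1% in control libraries. The shares overlapped in each of these families and were closer together among diet libraries. Means of these levels rest on 12 diet and 10 control libraries.

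**Figure D2:**
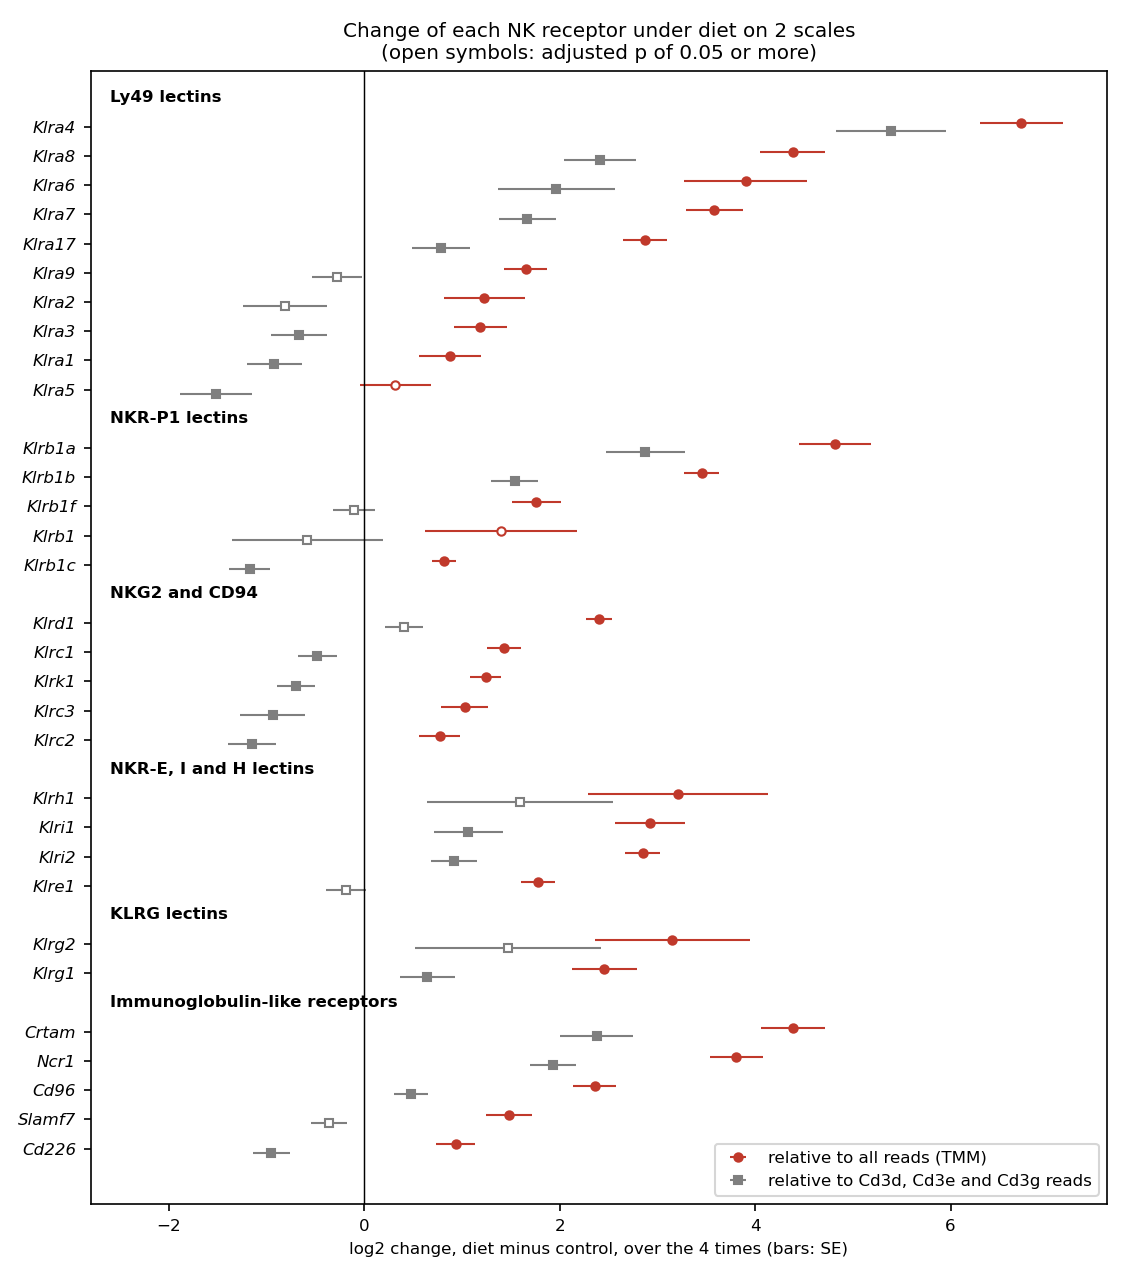
The log2 change of each tested receptor (diet minus control, mean of the 4 times, bars are SE), by family, relative to all reads (red circles) and relative to the summed reads of Cd3d, Cd3e and Cd3g (grey squares), with open symbols where the adjusted p was 0.05 or more. On the first scale all 31 points lie above 0 and 29 are called, and on the second 13 are called above 0 and 9 below it.

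The partners of these receptors inside the cell were higher too. Of 18 signalling adaptors and enzymes tested 17 were higher and none lower, with a median log2 change of 2.14. Tyrobp, which carries Klra4, Klra8 and other activating lectins, had 548, 646 and 841 CPM in diet libraries and 46.8, 108 and 227 CPM in control libraries (2.68 ± 0.18). Hcst, the adaptor of NKG2D, changed by 1.87 ± 0.18 and Fcer1g, the adaptor of NKp46, by 1.15 ± 0.08. Myeloid cells also make Tyrobp and Fcer1g, and 9 of 12 macrophage markers were higher and 1 was lower in the same comparison, with sums of 1418 to 4258 CPM in diet libraries and 501 to 3396 CPM in control libraries. The part of macrophages in the adaptor values was not tested.

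Ligands were mixed. Of 25 tested ligand genes 12 were higher and 6 lower, with a median of 0.52. Ligands of the Ly49 receptors among the classical class I genes had small values: H2-K1 was higher by 0.38 ± 0.06, while H2-D1 (-0.01 ± 0.05, adjusted p = 0.865) and B2m (-0.02 ± 0.05, adjusted p = 0.757) were not called. H2-T23, which encodes Qa-1, the ligand of CD94 with NKG2, fell by 0.56 on the log2 scale (adjusted p = 5.50e-05). Ligands of Cd226 and Cd96 were also lower, Pvr at -0.93 ± 0.09 and Nectin2 at -1.69 ± 0.10. Cadm1, the ligand of Crtam, had 50.4 to 121 CPM in diet libraries and 7.04 to 23.4 CPM in control libraries (2.35 ± 0.17), and the Klrg1 ligand Cdh1 had 76.7 to 151 CPM in diet libraries and 9.77 to 35.5 CPM in control libraries (2.48 ± 0.13). Of the NKG2D ligands, Ulbp1 was lower (-0.69 ± 0.14), H60b was not called (-0.43 ± 0.25, adjusted p = 0.164), and Raet1d, Raet1e and H60c were too low to test. Clec2d, which Klrb1b binds, was not called (0.08 ± 0.15, adjusted p = 0.694).

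Other genes of NK cells and of other lymphocytes moved in the same comparison. Of 20 further genes of NK cells and type 1 innate lymphoid cells 16 were higher and 2 lower, with sums of 2069 to 3960 CPM in diet libraries and 804 to 2138 CPM in control libraries. Eomes, the T-box factor of conventional NK cells, had 17.5, 52.4 and 102 CPM in diet libraries, against 0.0454, 0.910 and 3.59 CPM in control libraries (6.19 ± 0.28, adjusted p = 1.56e-13). The groups did not overlap. Granzyme A (Gzma) changed by 4.30 ± 0.32 and perforin (Prf1) by 3.06 ± 0.16. Tbx21, shared by NK cells and type 1 innate lymphoid cells, changed by 1.05 ± 0.20. The lower genes, Itga1 (-2.37 ± 0.09) and Tnfsf10 (-1.39 ± 0.09), are used as marks of liver type 1 innate lymphoid cells, and endothelium makes both of them. All 13 T cell markers were higher, with a median of 1.82, and so were all 9 markers of B and plasma cells, with a median of 2.15. Of 6 genes of plasmacytoid dendritic cells 4 were higher and 2 lower, and among the higher was Siglech with 810 to 1268 CPM in diet libraries and 52.3 to 637 CPM in control libraries. Of other receptors of the CD2 and SLAM families and of lymphocytes, 18 of 19 were higher and 1 was lower, and both tested markers of gamma-delta T cells were higher. Hepatocyte markers summed to 657 to 1541 CPM in diet libraries and 220 to 372 CPM in control libraries, with 6 of 8 higher, and all 10 endothelial markers were lower. The part of each of these cell types in the receptor values was not tested.

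Because T cell reads were higher in the same libraries, the receptors were also set against them. With each library scaled to its summed reads of Cd3d, Cd3e and Cd3g, 13 receptors were higher and 9 lower under diet, where 73.4% of all genes were called, 2.72% as higher and 70.7% as lower, and the median over all genes was -1.92. The higher ones were led by Klra4 (5.39 ± 0.56), Klrb1a (2.87 ± 0.40), Klra8 (2.41 ± 0.37), Crtam (2.38 ± 0.37), Klra6 (1.97 ± 0.60) and Ncr1 (1.93 ± 0.24). After them came Klra7, Klrb1b, Klri1, Klri2, Klra17, Klrg1 and Cd96. Lower were Klra5 (-1.52 ± 0.36), Klrb1c (-1.17 ± 0.21), Klrc2 (-1.15 ± 0.24), Cd226 (-0.95 ± 0.19), Klrc3, Klra1, Klrk1 (-0.70 ± 0.19), Klra3 and Klrc1 (-0.48 ± 0.20). Several calls near the threshold changed without single libraries. Those that ended were that of Klrg1 without any of 12, Klra3 without any of 11, Klrc1 without any of 5, Cd96 without replicate 1 of control ZT12 or replicate 2 of control ZT6, Klra17 without replicate 2 of control ZT12 or replicate 1 of control ZT6, and Klrc3 without replicate 1 of control ZT6 (adjusted p from 0.0515 to 0.339). Klrd1 (0.41, adjusted p = 0.0577) was called as higher without replicate 2 (0.0189) or 3 (0.0217) of control ZT0 or replicate 3 of diet ZT12 (0.0364). Klrg2 was called as higher without replicate 1 of control ZT18 (0.0322) or replicate 2 of control ZT6 (0.0378). Klra2 was called as lower without replicate 2 of control ZT0 (0.0438), replicate 2 of control ZT18 (0.0422) or replicate 1 of control ZT6 (0.0473), and Slamf7 without replicate 2 of control ZT0 (0.0340). With all libraries 4 of 5 of the CD94 and NKG2 family were lower per CD3 read and none higher, while in the Ly49 family 5 of 10 were higher and 3 lower. Scaled to Ptprc, the CD45 gene of all leukocytes, 14 receptors were higher and 9 lower (of all genes 72.9% were called, 3.69% as higher and 69.2% as lower), and all 13 and all 9 called per CD3 read were called the same way.

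The receptors were also set against Ncr1 itself. As Ncr1 was higher under diet, most genes are lower on this scale. Klrb1c had 0.529 to 0.787 reads per Ncr1 read in the 12 diet libraries and 1.13 to 31.7 in the 10 control libraries, and Klrk1 had 0.963 to 1.50 in diet libraries and 1.41 to 39.3 in control libraries. For Klrb1c the groups did not overlap, for Klrk1 they overlapped narrowly, and in both genes the diet libraries were far closer to each other than the control libraries were. Cd226 had 0.652 to 1.15 reads per Ncr1 read in diet libraries and 2.65 to 20.7 in control libraries, and Klrc1 had 0.553 to 0.907 in diet libraries and 1.12 to 20.8 in control libraries. Neither overlapped. Klrb1a had 0.0937 to 0.144 in diet libraries and 0.0125 to 0.133 in control libraries, and Klra4 0.0645 to 0.153 in diet libraries and 0 to 0.279 in control libraries. With libraries scaled to Ncr1 reads, 2 of the other 30 receptors were higher, Klra4 (3.60 ± 0.85) and Klrb1a (1.01 ± 0.43), and 20 were lower, where 88.2% of all genes were called, 0.17% as higher and 88.1% as lower, and the median over all genes was -3.94. The call of Klrb1a ended without replicate 2 of control ZT12 (adjusted p = 0.0586) or of control ZT6 (0.0856). Low Ncr1 counts, from 80 to 1003 reads in control libraries, limit these ratios, and so does the Klra4 group at 0.

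**Figure D3:**
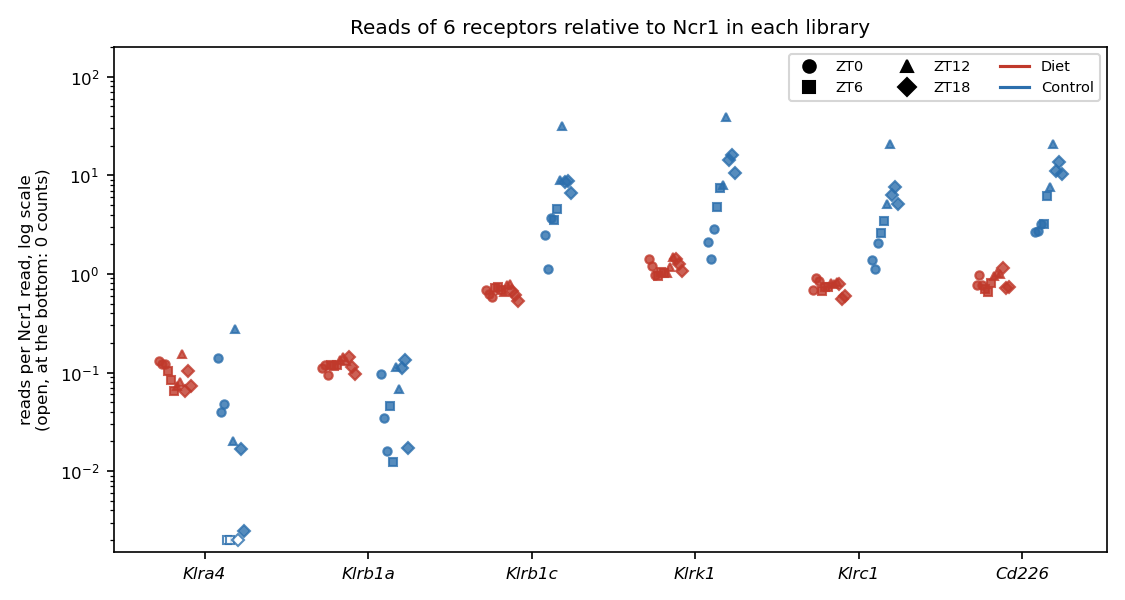
Reads of 6 receptors per Ncr1 read in each library on a log axis, diet libraries (red) left of control libraries (blue), with the symbol giving the zeitgeber time and open symbols at the bottom for 0 counts. Klrb1c, Klrk1, Klrc1 and Cd226 lie between 0.529 and 1.50 in diet libraries and between 1.12 and 39.3 in control libraries.

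At single times the same direction held for every call. The receptors higher under diet numbered 24 at ZT0, where 30% of all genes were called and 13.5% were higher. At ZT6 they numbered 22, with 30.1% of all genes called and 14.8% higher. For ZT12 the number was 19, with 29.6% called and 14.3% higher, and for ZT18 it was 18, with 30.9% called and 15.3% higher. None was lower at any time, while 15.3% to 16.5% of all genes were. Their median log2 change was 2.03 (ZT0), 2.58 (ZT6), 2.19 (ZT12) and 1.44 (ZT18). The change of Klra17 was least at ZT0 (1.09 ± 0.38) and came to 3.51 ± 0.50 at ZT6, then 2.42 ± 0.46 at ZT12 and 4.46 ± 0.44 at ZT18. The ZT0 call of Klra17 (adjusted p = 0.0332) ended without any 1 of the diet ZT0 libraries or without replicate 1 or 2 of control ZT0 (adjusted p from 0.0516 to 0.137). Klrb1c had 0.96 ± 0.23 at ZT0, 1.83 ± 0.27 at ZT6, 0.23 ± 0.25 at ZT12 (adjusted p = 0.544) and 0.22 ± 0.22 at ZT18 (adjusted p = 0.497). Klrk1 had 1.85 ± 0.29, 1.80 ± 0.34, 0.82 ± 0.32 (adjusted p = 0.0648) and 0.49 ± 0.28 (adjusted p = 0.206) at the same times, and its ZT12 value was called without replicate 2 or 3 of control ZT0 (adjusted p = 0.00972 and 0.0404) or replicate 2 of control ZT12 (0.0195). Ncr1 was called at all 4 times, with 2.41 ± 0.45 at ZT0 and 4.65 ± 0.60 at ZT12.

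Whether these differences depend on time was tested as an interaction, and 2 of 31 receptors passed, Klra17 (adjusted p = 0.0213) and Klra4 (adjusted p = 0.0335), where 0.959% of all genes did. Klrb1c (adjusted p = 0.0519), Klrk1 (0.154) and Ncr1 (0.207) did not. At an unadjusted p under 0.05 there were 12, where 14.5% of all genes were. The Klra17 call ended without replicate 1 (adjusted p = 0.0504) or replicate 2 (0.0590) of diet ZT0. The Klra4 call ended without any of 9 libraries: replicates 1 and 2 of diet ZT0, 1 and 2 of diet ZT6, 2 and 3 of diet ZT18, and replicate 1 of control ZT0, 2 of control ZT6 and 3 of control ZT18 (adjusted p from 0.0512 to 0.0698). Without replicate 2 of control ZT0 the count was 9, and with DESeq2 it was 7, while the share of all genes called was 4.91% and 8.37%.

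Under diet no receptor was called between the 4 times, by edgeR and by DESeq2 alike, and none had an unadjusted p under 0.05 in edgeR's test, where 1.08% of all genes were called and 11.8% were under that unadjusted p. In control libraries 11 of 31 were called between times (5.74% of all genes), and 21 had an unadjusted p under 0.05 (20.6% of all genes). The 11 were Klra17, Klra4, Klrk1, Klrb1c, Klre1, Klri2, Klrc1, Cd226, Ncr1, Klra8 and Klrc2. With only the control libraries in the fit, 8 of the 11 lost their call and Klra17, Klrk1 and Klrb1c kept it, and 1.25% of all genes were called. Among the 8 were Klra4 (adjusted p = 0.142), Ncr1 (0.218) and Klra8 (0.369). The values of the 11 fell into 2 broad patterns, described after they were seen. Klrk1 in control libraries had 29.1, 67.8 and 25.9 CPM at ZT0, 48.7 and 33.3 at ZT6, 54.7 and 104 at ZT12 and 150.3, 141 and 147 at ZT18 (adjusted p = 0.00121). The 3 libraries of ZT18 were above all others. Klrb1c had its highest mean at ZT18, with 76.9 to 90.9 CPM, and its lowest at ZT6, with 20.5 and 36.1 CPM (adjusted p = 0.00204). At ZT12 Klrb1c had 61.55 and 83.8 CPM, so the higher of these lay inside the ZT18 range. Klrc1 had 65.2 to 69.9 CPM at ZT18 and 15.5 and 26.1 CPM at ZT6 (adjusted p = 0.0211).

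T cell and leukocyte reads were also high at control ZT18, and highest in replicate 2 of control ZT0. The summed reads of Cd3d, Cd3e and Cd3g in control libraries were 183, 648 and 132 CPM at ZT0, 163 and 138 at ZT6, 272 and 339 at ZT12 and 413, 449 and 499 at ZT18. Ptprc had 209, 575 and 188 CPM at ZT0, 174.5 to 293 CPM at ZT6 and ZT12 and 471 to 540 CPM at ZT18. Scaled to CD3 reads, Klrk1 (adjusted p = 0.102), Klrb1c (0.832), Klrc1 (0.736), Cd226 (0.472), Klre1 (0.404), Klri2 (0.687) and Klrc2 (0.539) were not called between times in control. Without that scaling, the calls of Klrk1 and Klrb1c stayed without any 1 library. Klre1 lost its call without replicate 1 of control ZT18 (0.0593). Klrc1 and Cd226 lost theirs without replicate 2 or 3 of control ZT18 or replicate 2 of control ZT6, and Cd226 also without replicate 1 of control ZT6 (0.0537 to 0.0870). Klri2 lost its call without replicate 2 or 3 of control ZT18 or replicate 1 of control ZT6 (0.0543 to 0.123), and Klrc2 without any of 11 libraries (0.0513 to 0.113).

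The second pattern was highest at ZT0. Klra17 in control libraries had 17.9, 25.8 and 28.5 CPM at ZT0, 3.64 and 5.13 at ZT6, 19.2 and 3.92 at ZT12 and 4.41, 1.38 and 2.57 at ZT18 (adjusted p = 0.000448). The ZT0 libraries stood above all others except replicate 1 of ZT12, which lay among them. Klra4 had 1.95, 1.92 and 0.435 CPM at ZT0, 0 and 0 at ZT6, 0.136 and 0.738 at ZT12 and 0, 0.146 and 0.0342 at ZT18 (adjusted p = 0.00117). Scaled to CD3 reads, 6 of 31 receptors (19.4%) were called in control, a share below the 29.1% of all genes called on that scale. They were Klra17, Klra4, Klra8 and Ncr1, and also Klra2 (adjusted p = 0.0366), whose highest library was at ZT6, and Klrg2 (0.0315). Siglech, a marker of plasmacytoid dendritic cells, had 396 to 637 CPM at control ZT0, 86.4 and 132 at ZT6, 68.4 and 321 at ZT12 and 52.3 to 112 at ZT18 (adjusted p = 0.000475). Of the 6 genes of that list 4 were called between times in control, with Pacsin1, Ccr9 and Cox6a2 beside Siglech, while Bst2 (adjusted p = 0.0582) and Tcf4 (0.227), both lower under diet, were not. The list was chosen with earlier results known, and the part of these cells in the Klra17 values was not tested. The calls of Klra8 (adjusted p = 0.0319) and Ncr1 (0.0266) ended without replicate 2 of control ZT0 (0.0842 and 0.0763) or replicate 2 of control ZT12 (0.156 and 0.0783), and that of Klra8 also without replicate 1 of control ZT12 (0.0534) or of control ZT6 (0.0507).

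**Figure D4:**
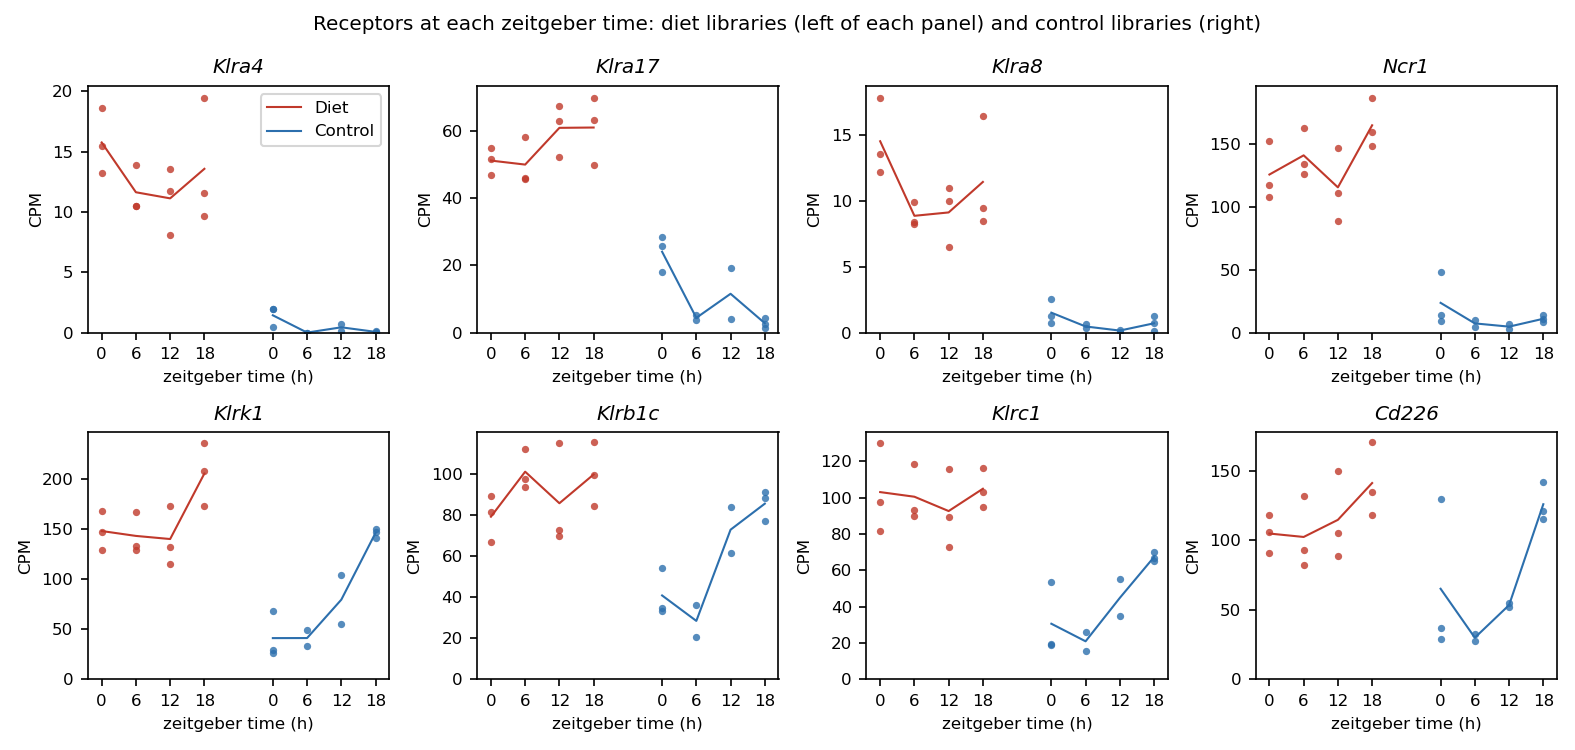
CPM of 8 receptors at each zeitgeber time, with diet libraries (red) on the left of each panel and control libraries (blue) on the right; points are libraries and lines join group means of 2 or 3 libraries. In control libraries Klra17 was highest at ZT0 (17.9 to 28.5 CPM) and Klrk1 at ZT18 (141 to 150.3 CPM), and no receptor was called between times under diet.

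Most of the receptors lie side by side on mouse chromosome 6. From Klrb1a (chr6:128609227-128623533 on GRCm38, minus strand) to Klra1 (chr6:130363917-130386874, minus strand), GENCODE M21 places 22 of the tested receptors, of which 20 were higher under diet with a median log2 change of 1.77. The 30 other tested genes of the interval were mixed, with 17 higher and 3 lower and a median of 1.22. Values of neighbours within a family ranged widely. Klra4 (6.72 ± 0.43) and Klra8 (4.38 ± 0.33) are next to each other among the tested receptors, and Klra5 (0.32 ± 0.37) and Klra6 (3.90 ± 0.63) are as well. Klrb1a (4.82 ± 0.37) and Klrb1c (0.81 ± 0.12), whose promoters are printed above, are parted among the receptors by Klrb1 alone.

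**Figure D5:**
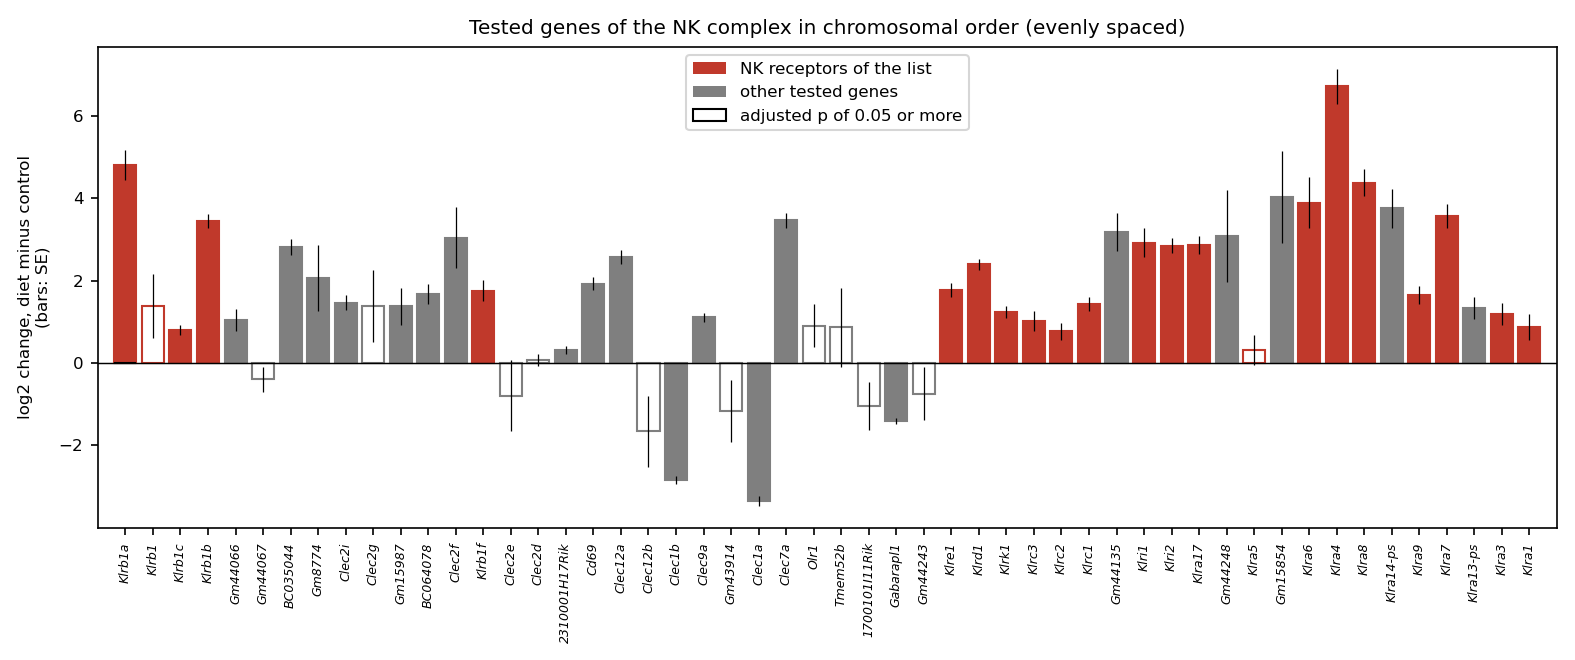
The log2 change (diet minus control over the 4 times, bars are SE) of the 52 tested genes between Klrb1a and Klra1 on chromosome 6, in chromosomal order and evenly spaced, with receptors in red and other genes in grey and open bars where the adjusted p was 0.05 or more. The receptors run from 0.32 (Klra5) to 6.72 (Klra4) and the other genes from -3.35 to 4.04.

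Near-identical copies and overlapping gene models limit some of these values, since the authors' counting could split or drop reads that match several genes. Of all 50-base windows of their GENCODE M21 transcripts, 60.2% of those of Klra10, 61.4% of Klrc1, 63.7% of Klrc3, 66.9% of Klra8 and 68.5% of Klra9 occur in no other gene. For Klra8 the gene that shares most windows is the pseudogene Klra14-ps (20.4%), and for Klrc1 it is Klrc2 (36.6%). The share was 83.0% for Klrb1c, 83.7% for Klrc2, 90.1% for Klrb1a, 95.3% for Klra4 and 100% for Ncr1, Klra17, Klrd1, Klrk1 and Crtam. For Klrb1b and Klrb1c most shared windows lie in Gm44511 (25.45% and 12.35%), a gene model that overlaps both genes on the same strand. The values of Klra8, Klra9, Klra3, Klrb1b, Klrb1c, Klrc1, Klrc2 and Klrc3 are thus less certain.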

How the data were processed

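Liver cells labelled HSC were profiled by bulk RNA-seq of total RNA in 22 libraries. Per the submitters' processing notes, reads were handled with STAR 2.7.9a, HTSeq and DESeq2 on GRCm38 (mm10); whether counting used strand, and with which annotation, is not given in these sources. The deposited table of raw counts per gene symbol was tested, with 55367 symbols, no entry without a gene name, and 19754805 to 41665623 counts per library. The authors also deposited a table of normalised signal per gene. Multiplying each library by its median ratio of counts to normalised values gave whole reads for 100% of the values (within 0.001 reads). All of these (100%) equalled the counts, so the normalised table is the count table rescaled. The count test on these same reads called 11748 genes under diet, which could not differ from the main test and is no separate check.

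R 4.3.3 with edgeR 4.0.16 was used: filterByExpr over the 8 groups (22409 genes kept), TMM scaling and glmQLFit on all libraries, with quasi-likelihood F tests of diet over the times (mean of the 4 differences), diet at each time, times within each diet, and the interaction. Calls are at an adjusted p under 0.05 (Benjamini-Hochberg over all tested genes). CPM are relative to TMM-scaled library totals. Each SE after ± is the size of the log2 change divided by the square root of its F statistic, so it is approximate. Scaled tests replaced library sizes by reads of CD3 genes, Ptprc or Ncr1. Counts were simulated with 200 changed genes, all drawn from genes with a mean over 4 CPM. The fit recovered 91.5% of 2-fold changes in the diet comparison over all times (21044 genes), with 5.67% false calls. Of 4-fold changes it recovered 90% for diet at ZT6, 87.5% for times in control, 96% for times under diet and 78% for the interaction. Recovery for genes at lower levels, among them several receptors, was not tested.

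Every receptor may be named; of each marker or ligand list, up to 6 genes by mean level and any on which a result turns. Other list genes named here, and the genes whose promoters are printed, were chosen after their values were seen. The members and lists were chosen with earlier results of these data known. Alternatives were RLE scaling, library size only, no filter, a floor of 1 on mean CPM, the replicate number as a block, DESeq2 1.42.0, only the groups compared and each library left out. Those chosen after seeing the data were the reads recovered from the normalised table, leaving out both control libraries that stand apart, leaving out ZT12, times per CD3 read, and scaling to Ncr1. Replicates were compared by their counts, and none was a duplicate.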

Additional observations from a re-analysis of the deposited data

Results flagged for a closer look

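Among the 10 control libraries, 6 of the 31 tested receptors had a highest library whose gap to the next was over 0.466 of the whole range. A highest or lowest library set off by such a gap was found for 16% of all tested genes. The 10 libraries come from 4 times, so the nominal rate of about 1 in 20 for 1 group does not hold here. In 4 of the receptors it was replicate 2 of control ZT0: Ncr1 at 48.0 CPM (next 13.9), Klra5 at 7.42 CPM (next 3.69), Klra7 at 6.03 CPM (next 3.40) and Klra8 at 2.54 CPM (next 1.26). That library also had the highest CD3 reads of all control libraries, 648 CPM, and Ptprc at 575 CPM. In the remaining 2 it was replicate 2 of control ZT6: Klra2 at 5.47 CPM (next 2.46) and Klrh1 at 0.223 CPM (next 0.0958).

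The effect of diet was called as differing between times for Klra17 (edgeR's interaction test, adjusted p = 0.0213) and Klra4 (adjusted p = 0.0335). As given above, the Klra17 call ended without either of 2 libraries and the Klra4 call without any of 9. For Klra17 the log2 change ran from 1.09 at ZT0 to 4.46 at ZT18 and was above 0 at all 4 times. For Klra4 it was 3.45 at ZT0, 4.55 at ZT12 and 7.67 at ZT18. At ZT18 no control library was above 0.146 CPM of Klra4, so that value leans on very few reads. At ZT6, with both control libraries at 0 counts, the level of Klra4 was at least 144-fold higher in diet libraries.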

How the results depend on the processing

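Over all times 29 receptors were called under diet with library size only (54.4% of all genes) and with no filter (25.1%). The count was 29 again with DESeq2 (54.6%) and the replicate block (51.3%), and 27 without ZT12 (49.1%). Tests over times depended most on the setting. Between times in control (11) there were 24 with no filter, 18 with DESeq2, 3 with only the control groups in the fit, 17 without the 2 control libraries that stood apart on the principal components, 6 per CD3 read, and 7 (without replicate 3 of control ZT18) to 17 (without replicate 2 of control ZT0) with 1 library left out. Over all genes these settings called, in that order, 6.21%, 16.7%, 1.25%, 7.80%, 29.1%, 4.13% and 8.85%. For the interaction (2) there were 21 with no filter (4.52% of all genes), 7 with DESeq2 (8.37%) and 11 when the same 2 control libraries were dropped (4.56%). With 1 library left out there were 0 to 9, where 0.339% to 4.91% of all genes were called. Under diet between times (0) there was 1 with no filter (3.25% of all genes). The median of 2.36 was 1.88 without ZT12, and the ZT0 median of 2.03 was 2.76 when the 2 outlying control libraries were dropped and 1.69 to 2.76 with 1 library left out. The causes were not tested.

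With 1 library left out, calls under diet ran from 28 to 30 over all times, 17 to 25 at ZT0, 20 to 23 at ZT6, 14 to 21 at ZT12 and 14 to 21 at ZT18, and 18 to 25 per CD3 read, 20 to 24 per Ptprc read and 21 to 24 per Ncr1 read. Medians ran from 2.05 to 2.51 over all times, 2.39 to 2.69 at ZT6, 2.16 to 2.34 at ZT12 and 1.26 to 1.82 at ZT18. Where a group is left with 1 library, that library is assumed to vary like the other groups. Without 1 library of a group of 3, 51.2% to 54% of all genes were called under diet over all times. Library size alone moved the median of all genes to 0.25 (from 0.08). Relative to all reads, the change over all times kept its sign for every tested receptor in each alternative; scaled to CD3, Ptprc or Ncr1 reads many signs differ, as reported. Per Ncr1 read, Klrb1 and Klra6, both low in counts, turned sign without replicate 1 and replicate 2 of control ZT12 (0.03 and 2.86).

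Same-numbered libraries did not deviate together (median r across genes -0.005, from -0.143 to 0.138, 71 pairs). For libraries with other numbers the median r was 0 (from -0.138 to 0.178, 140 pairs). The deviations are from means of 2 or 3 libraries, so this comparison cannot decide whether same-numbered libraries share a batch or a mouse. With the replicate block the counts were 29 over all times (51.3% of all genes) and 23, 22, 19 and 18 at ZT0 to ZT18. Between times there were 9 in control (5.21%) and 0 under diet (0.803%), and for the interaction there were 2 (0.549%). Median levels under 1 CPM limit Klrb1, Klrh1 and Klra10 on both diets, and the control values of Klra4, Klra6, Klra8, Klrb1a, Crtam, Klri1 and Klrg2.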

Other observations

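Ly49 pseudogenes lie among the receptor genes and share stretches of sequence with some of them. Klra13-ps had 4.61 to 14.7 CPM in diet libraries and 1.17 to 10.6 CPM in control libraries (log2 change 1.34 ± 0.26 SE, edgeR adjusted p = 0.000195). Klra14-ps had 1.48 to 4.61 CPM in diet libraries and 0 to 0.681 CPM in control libraries, which do not overlap (3.76 ± 0.47). Klra11-ps was too low to test.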
